A study of Homo sapiens with 6 samples.

Results

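The genes described here are 10 negative-feedback genes of the ERK branch of MAPK signalling: the dual-specificity phosphatase genes DUSP1, DUSP4, DUSP5 and DUSP6, the Sprouty genes SPRY2 and SPRY4, the Sprouty-related genes SPRED1 and SPRED2, and the ERK-induced genes PHLDA1 and IER3. They were picked by symbol from the deposited table, which holds all 10 of them among 17280 genes, and all 10 were tested, among 12195 in all, since they reached an average of 1 TPM over the 6 libraries. TPM, a transcript's relative abundance, corrects for gene length and for library total. RNA was sequenced from sphere cultures of CAL-27, an established cell line from a human squamous carcinoma of the tongue. One group consists of 3 libraries titled LF3, after a small molecule that keeps beta-catenin from binding TCF4, with an exposure of 24 h in the series design. The treatment field of the same 3 libraries names elesclomol-Cu for 24 h instead, elesclomol being a compound that ferries copper into cells, so which agent the cells received cannot be told apart from the labels. The other group consists of 3 libraries titled CON, whose treatment field reads normal control, and no vehicle or dose is given for either group. Groups follow the titles, all differences are LF3 minus CON, and no label calls the replicates separate cultures. The p-values therefore speak to library-to-library spread alone, possibly of technical origin. In such bulk RNA, fewer cells that express a gene and less RNA per cell cannot be told apart.

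ERK is the last kinase of a chain that runs from growth factor receptors through RAS, RAF and MEK, and it switches on the transcription of genes whose products turn the chain down again. DUSP proteins remove the activating phosphates from MAP kinases, Sprouty proteins act between the receptor and RAF, and SPRED proteins bring the RAS-inactivating protein neurofibromin to the membrane. Their transcripts are short-lived and are widely read as a measure of ERK pathway output in carcinoma cells, although several of them also respond to stress, cytokines or hormones.

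The feedback genes did not move as 1 block. DUSP1, DUSP5, DUSP6, SPRY2 and SPRY4 fell in LF3 libraries, DUSP4, SPRED2 and IER3 rose, and SPRED1 and PHLDA1 did not pass the test. The group means of DUSP1 lay 9.46-fold apart, the widest gap among the 10, and those of DUSP4, the only riser with a log2 fold change above 1, lay 3.39-fold apart. Thus 5 members were called lower, 3 higher and 2 were not called (limma, Benjamini-Hochberg adjusted p under 0.05). Calls were common in the whole table, where 85.5% of tested genes were called, 32.3% lower and 53.2% higher. All 5 lower members and 1 of the 3 higher ones had a log2 fold change of at least 1 in size, against 11.1% of tested genes that were called with a log2 fold change of -1 or less and 20.8% with 1 or more. The LF3 and CON values did not overlap for 8 of the 10 members, and for 86.2% of tested genes. The median log2 fold change was -0.56 over the 10 members and 0.24 over all tested genes. Since the median of all genes lay above 0, each library was also divided by the median, over tested genes, of its ratio to the gene's geometric mean (median-ratio rescaling). The tested genes then split into 42.6% higher and 42.7% lower, and the members into 2 higher and 7 lower, with a median of -0.82 against -0.0055 over all tested genes.

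The 250 bases before the transcription start are shown for the 4 members that fell and that have an entry in the RefSeq promoter table of GRCh38.p14. They were chosen by the fall of these genes in the same data, and shared control of their promoters was not tested. Sequences run 5′ to 3′ on the gene's strand, and for SPRY2, which has several starts in the table, the most upstream entry is printed.
DUSP1, chr5:172771196-172771445, minus strand: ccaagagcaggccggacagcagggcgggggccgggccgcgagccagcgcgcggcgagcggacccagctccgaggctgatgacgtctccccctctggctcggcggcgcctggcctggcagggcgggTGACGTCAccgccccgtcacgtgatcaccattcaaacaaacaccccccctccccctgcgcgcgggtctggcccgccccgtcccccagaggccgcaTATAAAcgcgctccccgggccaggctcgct
DUSP6, chr12:89352502-89352751, minus strand: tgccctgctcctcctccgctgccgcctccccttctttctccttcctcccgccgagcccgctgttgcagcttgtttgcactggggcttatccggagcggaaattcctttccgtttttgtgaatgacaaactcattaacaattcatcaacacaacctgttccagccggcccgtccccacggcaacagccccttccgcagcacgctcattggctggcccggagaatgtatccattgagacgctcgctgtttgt
SPRY2, chr13:80341127-80341376, minus strand: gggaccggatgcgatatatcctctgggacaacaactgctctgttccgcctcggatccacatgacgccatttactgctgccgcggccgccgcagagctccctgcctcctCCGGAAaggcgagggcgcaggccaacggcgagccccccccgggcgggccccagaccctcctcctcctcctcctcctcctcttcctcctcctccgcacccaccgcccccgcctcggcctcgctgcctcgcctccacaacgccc
SPRY4, chr5:142324248-142324497, minus strand: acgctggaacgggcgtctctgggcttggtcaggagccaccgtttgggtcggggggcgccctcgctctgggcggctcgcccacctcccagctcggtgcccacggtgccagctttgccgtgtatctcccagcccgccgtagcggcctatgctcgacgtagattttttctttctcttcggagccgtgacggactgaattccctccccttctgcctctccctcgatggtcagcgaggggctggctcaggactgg
Capitals mark matches on either strand to the ETS core CCGGAA, the cAMP response element TGACGTCA, the AP-1 site TGANTCA, the TCF core CTTTGA, the TATA box TATAAA and the CArG box, which binds serum response factor. No match overlapped another. DUSP1 held a full cAMP response element from base -125 to -118 before its start, a match that 2.51% of 14527 promoters of tested genes held, and a TATA box from -30 to -25, which 6.01% held. SPRY2 held an ETS core from -142 to -137, as did 22.9% of promoters. The windows printed for DUSP6 and SPRY4 held none of these motifs, which says nothing about binding outside them or by degenerate sites. The same search in further entries found 2 TCF cores before the most downstream start of SPRY2, at -21 to -16 and -10 to -5 (7.74% of promoters held at least 1), and an ETS core before PHLDA1 at -89 to -84. A TATA box lay before the more downstream start of SPRED2 from -31 to -26. AP-1 sites were held by 4.61% of promoters and CArG boxes by 1.14%, and none of the 10 windows searched, from 7 members, had one. DUSP5 and IER3 had no entry, and DUSP4, the member that rose most, was left out of the search. The motif results therefore say nothing about these genes.

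DUSP1 encodes a nuclear phosphatase, also called MKP-1, that acts on p38, JNK and ERK and is rapidly induced by mitogens, stress and glucocorticoids. It stood at 13.26, 12.94 and 16.65 TPM in the LF3 libraries and at 133.99, 134.81 and 136.7 TPM in the CON libraries. The CON libraries lay close together and far above all LF3 libraries, of which replicate 3 was the highest. The log2 fold change on the log2(TPM + 1) scale was -3.16 ± 0.080 (limma standard error, n = 3 each; adjusted p = 4.96e-11). Only 0.763% of tested genes changed by more on this scale, in either direction. By mean TPM this gene dropped to 14.3 ± 2.06 in LF3, against 135 ± 1.39 in CON (SD, n = 3 each).

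DUSP5, whose product is a nuclear phosphatase with a strong preference for ERK, had 33.37, 32.83 and 35.01 TPM in LF3 libraries, against 136.49, 138.47 and 136.04 TPM in CON libraries. In CON its range overlapped that of DUSP1, and in LF3 it lay above DUSP1 in every library, with a DUSP1 to DUSP5 ratio of 0.422 ± 0.0461 in LF3 and 0.987 ± 0.0162 in CON (SD, n = 3 each). Its log2 fold change was -1.99 ± 0.042 (adjusted p = 1.51e-11). DUSP5 has the pseudogenes DUSP5P1 and DUSP5P2, and the sources used here do not give how reads shared with them were assigned.

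DUSP6, or MKP-3, is a cytoplasmic phosphatase that is highly selective for ERK. It had 15.88, 15.53 and 15.29 TPM in LF3 libraries and 68.09, 68.53 and 69.67 TPM in CON libraries, so replicates differed little and the groups lay far apart. Its log2 fold change was -2.07 ± 0.047 (adjusted p = 2.30e-11). The readthrough locus POC1B-DUSP6 spans the gene in RefSeq and is not a row of the table.

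DUSP4, or MKP-2, a nuclear phosphatase related to DUSP1, went the other way. It had 52.37, 50.23 and 48.65 TPM in LF3 libraries and 14.31, 14.64 and 15.67 TPM in CON libraries, with no overlap. The log2 fold change was 1.70 ± 0.056 (adjusted p = 3.32e-10), and 10.4% of tested genes changed by more in either direction. Within a library, DUSP4 stood at 3.58 ± 0.575 times the level of DUSP1 in LF3 and at 0.110 ± 0.00410 times in CON. Against DUSP6 the ratio was 3.24 ± 0.0581 in LF3 and 0.216 ± 0.00772 in CON (SD, n = 3 each).

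**Figure D1:**
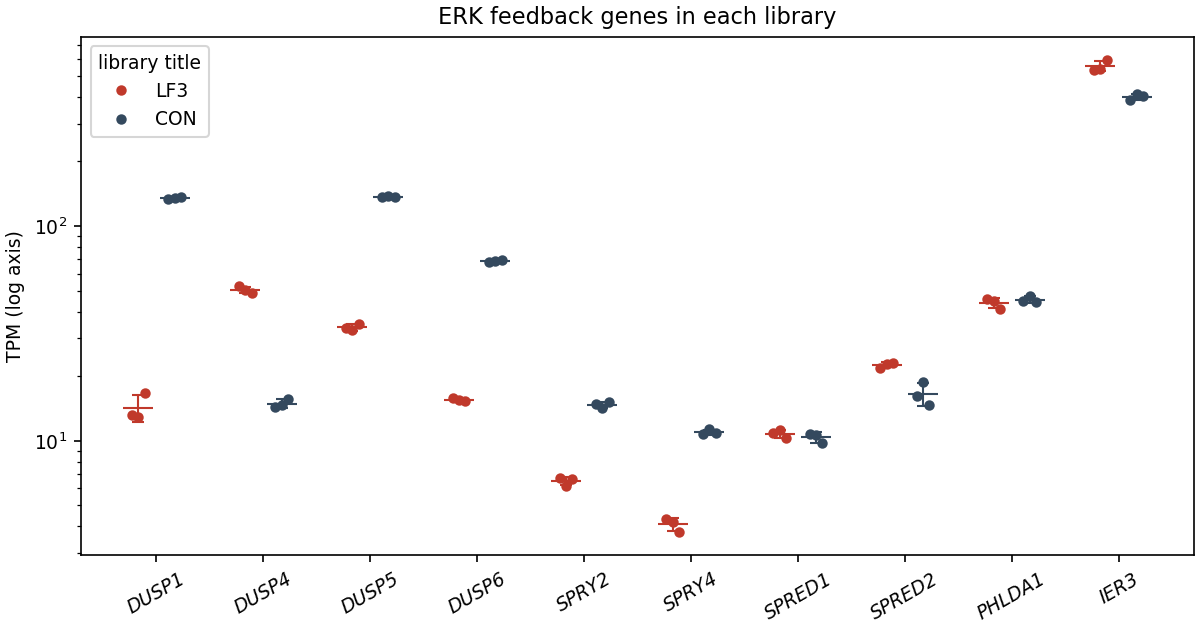
TPM of the 10 feedback genes in each of the 6 libraries on a log axis, LF3 in red and CON in dark blue; points are libraries, horizontal marks are means and bars are SD (n = 3 each). The LF3 points of DUSP1, DUSP5, DUSP6, SPRY2 and SPRY4 lie below all CON points, those of DUSP4, SPRED2 and IER3 above them, and those of SPRED1 and PHLDA1 overlap them.

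SPRY2 and SPRY4 encode Sprouty proteins, which are recruited by activated receptors and damp the signal upstream of ERK. SPRY2 had 6.71, 6.18 and 6.63 TPM in LF3 libraries and 14.79, 14.28 and 15.22 TPM in CON libraries. SPRY4 had 4.33, 4.18 and 3.78 TPM in LF3 libraries and 10.73, 11.32 and 10.92 TPM in CON libraries. For both genes every LF3 library lay below every CON library. Log2 fold changes were -1.07 ± 0.067 for SPRY2 (adjusted p = 5.58e-08) and -1.24 ± 0.076 for SPRY4 (adjusted p = 4.44e-08). The noncoding gene SPRY4-IT1 lies within SPRY4 and has no row of its own in the table.

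The SPRED genes did not follow the Sprouty genes. SPRED1 had 10.83, 11.21 and 10.27 TPM in LF3 libraries and 10.77, 10.66 and 9.72 TPM in CON libraries, with overlapping ranges and a log2 fold change of 0.049 ± 0.070 (adjusted p = 0.527). Its interval, from -0.11 to 0.20, leaves small changes in both directions possible, and after median-ratio rescaling the value was -0.20 and passed the test (adjusted p = 0.0127). SPRED2 had 21.92, 22.87 and 23.11 TPM in LF3 libraries and 16.23, 18.75 and 14.74 TPM in CON libraries, which spread more than the LF3 libraries but did not reach them. Its log2 fold change of 0.43 ± 0.080 (adjusted p = 0.000410) became 0.17 after median-ratio rescaling, without a call (adjusted p = 0.0617). The ratio of SPRED2 to SPRY2 within a library was 3.48 ± 0.217 in LF3 and 1.13 ± 0.174 in CON (SD, n = 3 each).

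PHLDA1, a small protein with a pleckstrin-homology-like domain that ERK activity induces, had 45.7, 45.01 and 41.14 TPM in LF3 libraries and 44.93, 47.4 and 44.19 TPM in CON libraries. The ranges overlapped, and its log2 fold change was -0.050 ± 0.054 (adjusted p = 0.403; interval -0.17 to 0.071). After median-ratio rescaling it was called lower at -0.32 (adjusted p = 5.74e-05). IER3, an immediate-early gene for a survival factor that both ERK and NF-kappaB induce, was the most abundant member in every library. It had 534.95, 540.44 and 591.31 TPM in LF3 libraries and 386.43, 409.93 and 401.59 TPM in CON libraries, without overlap. Its log2 fold change was 0.47 ± 0.043 (adjusted p = 1.23e-06), and 0.20 after median-ratio rescaling, still called (adjusted p = 0.00592). The antisense genes PHLDA1-AS1 and IER3-AS1 overlap these genes and have no row in the table, and the sources used here do not give whether the libraries kept strand.

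**Figure D2:**
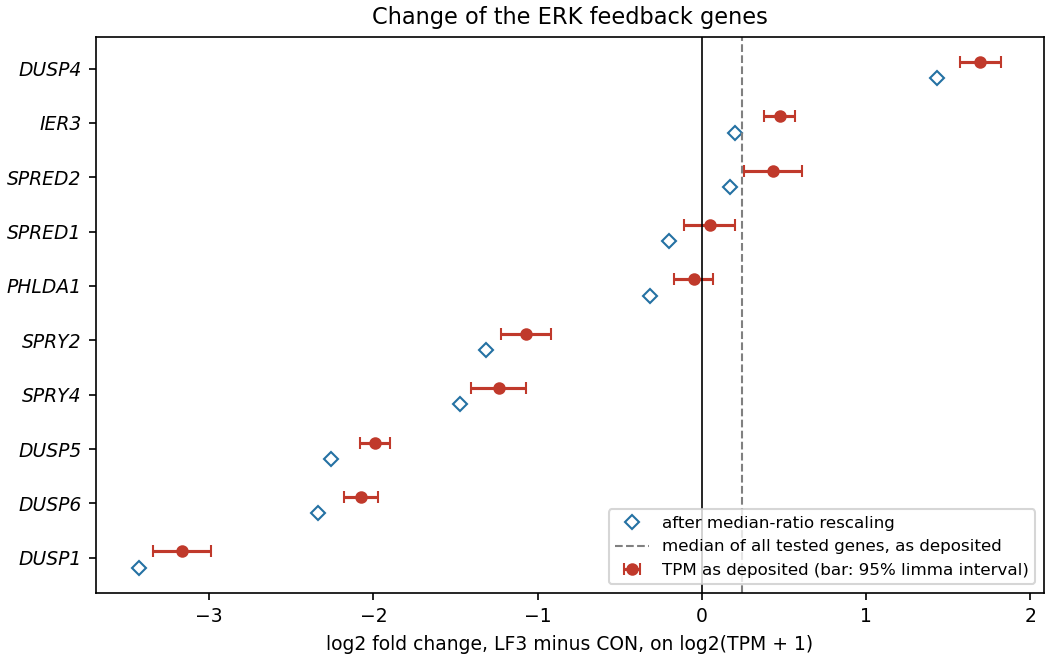
Log2 fold change of each feedback gene, LF3 minus CON on log2(TPM + 1), with its 95% limma interval (red, TPM as deposited) and after median-ratio rescaling (blue diamonds); the dashed line is the median of all tested genes, 0.24. Values run from 1.70 for DUSP4 to -3.16 for DUSP1, and rescaling moves every gene to the left, taking SPRED1 across 0.

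The order of levels differed between the groups, with DUSP4 second in LF3 and seventh in CON. In LF3 libraries the members ranked IER3, DUSP4, PHLDA1, DUSP5, SPRED2, DUSP6, DUSP1, SPRED1, SPRY2 and SPRY4 by mean TPM, and only DUSP6 and DUSP1 overlapped as neighbours. In CON libraries they ranked IER3, DUSP5, DUSP1, DUSP6, PHLDA1, SPRED2, DUSP4, SPRY2, SPRY4 and SPRED1, where DUSP5 overlapped DUSP1, the run from SPRED2 through DUSP4 to SPRY2 overlapped link by link, and SPRY4 overlapped SPRED1. The summed level of the 10 members was 758 ± 29.7 TPM in LF3 and 853 ± 16.0 TPM in CON. Without IER3, the most abundant member, the other 9 members summed to 202 ± 2.10 TPM in LF3 and 454 ± 4.38 TPM in CON (SD, n = 3 each).

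The 4 member DUSP genes belong to a set of 10 MAPK phosphatases that carry a kinase-binding domain, the others being DUSP2, DUSP7, DUSP8, DUSP9, DUSP10 and DUSP16. This set was summed after its values had been seen. The 10 phosphatases summed to 186.24, 182.42 and 181.07 TPM in LF3 libraries and to 436.12, 438.92 and 439.65 TPM in CON libraries, and the groups lay far apart. DUSP4 held 27.5 ± 0.626% of this sum in LF3 and 3.39 ± 0.150% in CON. DUSP1 held 7.80 ± 1.21% in LF3 and 30.8 ± 0.216% in CON, DUSP5 18.4 ± 0.796% in LF3 and 31.3 ± 0.304% in CON, and DUSP6 8.49 ± 0.0442% in LF3 and 15.7 ± 0.135% in CON. DUSP10, named after its values were seen, which acts on JNK and p38, was not itself called lower (log2 fold change -0.083 ± 0.064, adjusted p = 0.242; -0.35 and called after median-ratio rescaling), and its share was 18.2 ± 1.43% in LF3 and 8.04 ± 0.280% in CON. The phosphatases that prefer JNK and p38, DUSP8, DUSP10 and DUSP16, together held 25.1 ± 1.47% in LF3 and 12.9 ± 0.234% in CON. The nuclear inducible ones, DUSP1, DUSP2, DUSP4 and DUSP5, held 55.2 ± 1.67% in LF3 and 65.8 ± 0.156% in CON (SD, n = 3 each). The TPM of DUSP10 itself overlapped between the groups, at 30.22 to 35.65 in LF3 and 34.2 to 36.36 in CON, so a larger share of the sum is not a higher level. DUSP8, DUSP10 and DUSP16 together summed to less in LF3, at 46.0 ± 2.94 TPM, against 56.6 ± 0.791 TPM in CON, without overlap (SD, n = 3 each).

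**Figure D3:**
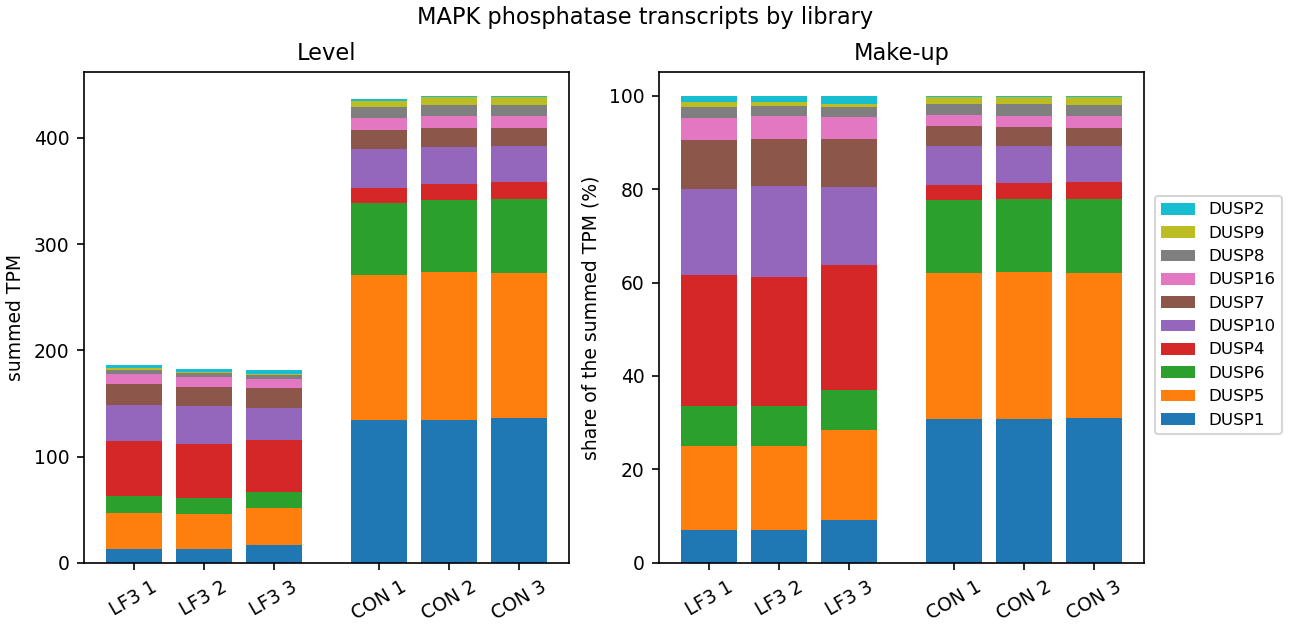
Summed TPM of 10 MAPK phosphatase genes in each library (left) and each gene's percentage of that sum (right), LF3 libraries left of CON libraries, 1 bar per library. The LF3 bars end at 181.07 to 186.24 TPM and the CON bars at 436.12 to 439.65 TPM, and DUSP4 takes 27.5% on average in LF3 and 3.39% in CON.

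Among the 6 MAPK phosphatases that are not members, 1 was called higher and 3 lower, and after median-ratio rescaling 1 higher and 5 lower. DUSP8, a JNK and p38 phosphatase, had 3.97 ± 0.215 TPM in LF3 and 10.6 ± 0.0954 TPM in CON, with a log2 fold change of -1.23 ± 0.073 (adjusted p = 3.39e-08). DUSP9, a cytoplasmic ERK phosphatase, had 1.58 ± 0.434 TPM in LF3 and 6.66 ± 0.729 TPM in CON. DUSP16 fell by 0.26 on the log2 scale, and DUSP2, a nuclear phosphatase, rose to 2.73 ± 0.336 TPM in LF3, against 1.37 ± 0.357 TPM in CON (SD, n = 3 each). Of 8 tested atypical dual-specificity phosphatases, which lack the kinase-binding domain, 4 were called higher and 1 lower (4 and 4 after rescaling). The lower count was 2 with array weights, no filter, the replicate block, and without LF3 replicate 2 or CON replicate 2, and 3 after quantile normalization. Log2 fold changes were 1.60 ± 0.088 for DUSP12, 0.89 ± 0.066 for DUSP14, 0.50 ± 0.042 for DUSP3, known as VHR, and -0.45 ± 0.052 for DUSP11, which acts on RNA.

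The remaining relatives of the Sprouty, SPRED, PHLDA and IER genes moved little. Of 7 tested, 0 were called higher and 1 lower by limma (0 and 4 after rescaling), and 0 of the 7 had groups that did not overlap, against 86.2% of all tested genes given above. The 1 called, IER2, had a log2 fold change of -0.16 ± 0.063 (adjusted p = 0.0378). No relative was called without a mean-variance trend, or with LF3 replicate 1, LF3 replicate 2 or any CON replicate left out. Among relatives named after their values were seen, SPRY1 had 2.50 ± 0.114 TPM in LF3 and 2.33 ± 0.332 TPM in CON, and PHLDA2 87.5 ± 3.76 TPM in LF3 and 83.8 ± 2.59 TPM in CON. SPRY3 lay below the filter and was not tested, at 0.4, 0.32 and 0.39 TPM in LF3 libraries and 1.28, 1.43 and 1.28 TPM in CON libraries.

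Genes of the RAS-ERK cascade itself moved in both directions, with 7 of 21 called higher and 7 lower (4 and 14 after rescaling) and a median log2 fold change of 0.0093 against 0.24 over all tested genes. HRAS rose to 113 ± 2.70 TPM in LF3, against 34.8 ± 3.23 TPM in CON, and PTPN11, the phosphatase SHP2 that passes receptor signals to RAS, rose to 135 ± 5.41 TPM in LF3, against 67.0 ± 4.45 TPM in CON. MAP2K1, encoding MEK1, fell to 116 ± 0.739 TPM in LF3, against 199 ± 1.76 TPM in CON. Named after their values were seen, MAPK3, encoding ERK1, had a log2 fold change of -0.64 ± 0.058, BRAF -1.06 ± 0.078 and the scaffold gene KSR1 -1.13 ± 0.067. EGFR, a receptor upstream of RAS and also named after its values were seen, had 260 ± 15.8 TPM in LF3 and 245 ± 6.59 TPM in CON and was not called (adjusted p = 0.101; called lower at -0.19 after median-ratio rescaling). Of 7 kinases that MAP kinases activate, 6 rose and 1 fell (4 and 1 rescaled). MKNK2, which phosphorylates the cap-binding protein, fell to 52.9 ± 2.15 TPM in LF3, against 264 ± 12.4 TPM in CON. RPS6KA4, encoding MSK2, rose to 134 ± 7.21 TPM in LF3, against 28.4 ± 0.684 TPM in CON. RPS6KA1 and RPS6KA3, which encode RSK kinases, had log2 fold changes of 0.81 ± 0.043 and 0.63 ± 0.063.

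Other genes that ERK induces also moved in both directions, with 4 of 15 tested called higher and 7 lower (4 and 11 after rescaling). ERRFI1, a feedback inhibitor of EGFR, fell to 58.6 ± 1.97 TPM in LF3, against 434 ± 15.6 TPM in CON, and JUNB, an AP-1 subunit, to 80.9 ± 5.76 TPM in LF3, against 293 ± 7.91 TPM in CON. The cyclin D1 gene CCND1 and MYC rose, by 1.27 ± 0.043 and 1.21 ± 0.054 on the log2 scale. FOS, named after its values were seen, had 6.14 ± 1.91 TPM in LF3 and 57.3 ± 1.26 TPM in CON, a log2 fold change of -3.06 ± 0.15 close to that of DUSP1, while FOSL1, another AP-1 gene, had 1.20 ± 0.063. ETV5 and EPHA2, often used with DUSP6 and SPRY4 as readouts of ERK output and also named after their values were seen, had 0.059 ± 0.054 (adjusted p = 0.321) and 0.049 ± 0.044 (adjusted p = 0.317). After median-ratio rescaling both were called lower, at -0.21 for ETV5 and -0.22 for EPHA2. ETV4, of the same family as ETV5, fell to 15.7 ± 0.278 TPM in LF3, against 19.1 ± 2.02 TPM in CON, a log2 fold change of -0.26 ± 0.075 (adjusted p = 0.00759; -0.52 after rescaling). EPHA4 and EGR3 lay below the filter. In the JNK and p38 cascade, 8 of 11 tested genes rose and 3 fell (6 and 3 rescaled). The log2 fold changes were 1.28 ± 0.054 for MAP2K3, 1.07 ± 0.071 for MAPK9, 1.01 ± 0.060 for MAP2K4 and -1.17 ± 0.061 for MAPK13; MAP2K6 was below the filter.

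**Figure D4:**
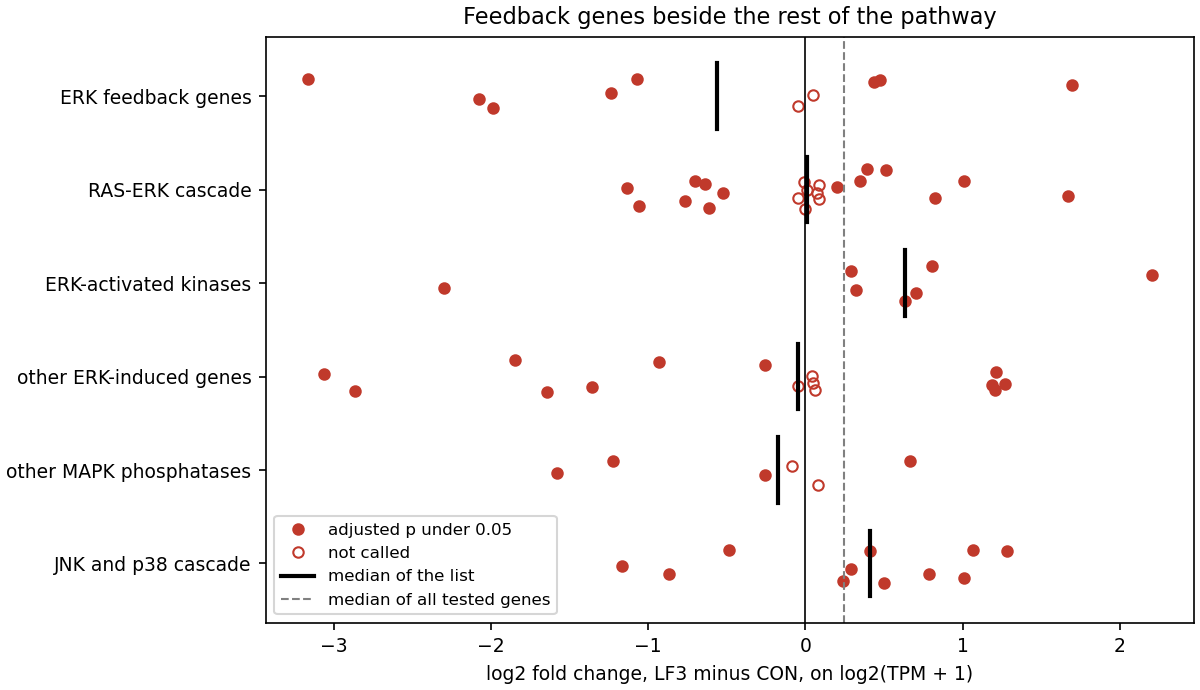
Log2 fold change, LF3 minus CON on log2(TPM + 1), of every tested gene in the feedback list and 5 lists of the pathway; filled points passed an adjusted p of 0.05 (limma), open points did not, black bars are list medians and the dashed line is the median of all tested genes. Only the median of the feedback genes, at -0.56, lies below -0.5, and points on both sides of 0 occur in all 6 lists.

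Genes listed as induced by glucocorticoids, which also induce DUSP1, and genes of messenger RNA decay factors were looked at as well. Of 5 genes listed as glucocorticoid-induced that were tested, 2 were higher and 3 lower. PER1 fell to 6.95 ± 0.384 TPM in LF3, against 79.5 ± 3.42 TPM in CON, and TSC22D3, which encodes GILZ, to 10.2 ± 0.992 TPM in LF3, against 51.5 ± 2.18 TPM in CON. FKBP5 rose to 50.4, 49.65 and 48.89 TPM in LF3 libraries, against 10.2, 9.96 and 9.97 TPM in CON libraries, and SGK1 rose by 0.63 ± 0.048 on the log2 scale. ZFP36 and ZFP36L1, whose proteins bind AU-rich elements and speed the decay of messenger RNAs, fell by 2.07 and 0.94 on the log2 scale, and their relative ZFP36L2 rose by 0.56. What part any of these genes has in the values of the feedback genes was not tested.

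The annotated transcripts of the members had few exons. Their principal transcripts in GENCODE release 29 (GRCh38) had a median of 3.5 exons, against 9 over 11881 tested genes with a transcript there. The pentamer AUUUA, the core of AU-rich elements, occurred a median of 4.5 times in their 3' untranslated regions, against 2 over tested genes. Per kilobase the medians lay closer, at 2.22 for the members and 1.605 for tested genes. Of the 10 members, 5 had at least 5 copies, as did 29.1% of tested genes. Copies per kilobase were highest in IER3 at 8.14 and DUSP1 at 5.95, and DUSP5 had 0 copies in 1118 bases. SPRED1 had 24 copies in 5585 bases and PHLDA1 14 in 4672 bases, and neither passed the test. Members that fell had 4 copies in DUSP1, 2 in SPRY2, 1 in DUSP6, 1 in SPRY4 and 0 in DUSP5, and those that rose had 6 in DUSP4, 6 in IER3 and 5 in SPRED2. Per kilobase the members did not divide by direction, with DUSP4 at 1.51 and SPRED2 at 1.89 below SPRY2 at 2.56 and DUSP1. Over tested genes, the median log2 fold change was 0.194 for 3425 with at least 5 copies and 0.276 for 8361 with fewer. The counts describe the annotation only and were made after the values had been seen. Their part in the fold changes was not tested.

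The genes whose values ran most like those of a member were sought by the Euclidean distance between centred log2(TPM + 1) profiles over the 6 libraries, among 9952 tested genes that averaged 5 TPM or more. Nearest to DUSP1 were H1-3, a histone gene with near-identical relatives (distance 0.159), and ENO2, the neuronal enolase of glycolysis (0.190), which had 70.7 ± 2.83 TPM in LF3 and 643 ± 6.30 TPM in CON. Nearest to DUSP4 were PSMD3, a proteasome subunit gene (0.0733), and MGAT4B, a glycosyltransferase gene (0.0776). With 2 groups of 3, such likeness mostly reflects a similar log2 fold change on the log2(TPM + 1) scale. H1-3 averaged 0.38 ± 0.18 TPM in LF3, below the added 1, and 11.4 ± 0.633 TPM in CON (SD, n = 3 each). The added 1 shrinks its change on that scale, so its ratio of mean TPM was wider than that of DUSP1.

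Markers of squamous epithelium were also looked at, which cannot establish the identity of a cell line. Of these, 8 of 9 passed the filter, KRT14 being below it at 0.447 ± 0.143 TPM in LF3 and 0.777 ± 0.0757 TPM in CON. The 8 moved in both directions, with 4 called higher and 3 lower (2 and 5 after rescaling). KRT5 had 454 ± 6.66 TPM in LF3 and 102 ± 3.43 TPM in CON, KRT17 58.04 to 59.42 TPM in LF3 and 192.38 to 209.42 TPM in CON, and PKP1 5.36 ± 0.326 TPM in LF3 and 23.4 ± 1.12 TPM in CON. Their part in the values of the feedback genes was not tested. EPCAM stood at 337 ± 6.40 TPM in LF3 and 337 ± 17.1 TPM in CON, and the summed markers at 1117 ± 23.3 TPM in LF3 and 893 ± 18.3 TPM in CON. Of 11 markers of other cell types, 5 passed the filter, with 1 called higher and 4 lower (1 and 4 after rescaling). All 11 summed to 57.67 to 64.15 TPM in LF3 and 349.18 to 363.52 TPM in CON. Most of it was CD68, a lysosomal protein gene that is not restricted to macrophages, at 47.4 ± 2.25 TPM in LF3 and 334 ± 6.49 TPM in CON, while PTPRC, COL3A1 and DCN averaged at most 0.0133 TPM in either group. Libraries correlated at 0.996 or more across tested genes within groups and at 0.867 or less between them, and none stood apart from its group. LF3 libraries listed 1948 to 1986 genes at 0 and CON libraries 1359 to 1407.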

How the data were processed

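The authors deposited 1 TPM value for each gene and library; these sum to the same total in each library; TPM keeps no sequencing depth, so no counting interval is given. Per the labels' protocols, RNA was extracted with Trizol and single-end reads of 50 bases were made on a BGISEQ500. HISAT, Bowtie2 and GRCm38.p6, a mouse build, are named in the submitters' processing notes, although the table's identifiers are human; no gene coordinates are taken from the table, and promoter positions are those of RefSeq. From the deposited TPM, log2(TPM + 1) was tested with limma 3.58.1 in R 4.3.3 (mean-variance trend, two-sided, Benjamini-Hochberg adjustment over the 12195 genes averaging 1 TPM or more, threshold 0.05), a scale that understates changes of low genes. The members and all lists were chosen with earlier results of these data known. All 10 members are named, and of each further list up to 4 called genes with the smallest adjusted p; exceptions are marked, and 1 gene that this rule names is not reported here. An exact permutation test of 3 against 3 cannot go below p = 0.1, so none is given. Same-numbered replicates were not treated as pairs. Any pair of libraries within a group had identical values for at most 0.541% of tested genes, so all 6 libraries were kept. The procedure was tested on simulated data. Alternatives were 2 other pseudocounts, 2 filters, 2 scalings, 3 variance models, a replicate block and leaving out each library. Tables and figures used Python 3.11.15 and matplotlib 3.10.9.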

Additional observations from a re-analysis of the deposited data

How the results depend on the processing

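Every member kept its direction and its side of the threshold with no trend, robust variances, array weights, the replicate block, either other pseudocount (0.1 or 0.5), either other filter (none or 5 TPM) and each left-out library. Exceptions came with the 2 scalings, and median-ratio scaling took the median of all tested genes from 0.24 to -0.0055. SPRED1 turned to -0.20 (adjusted p = 0.0127) after median-ratio scaling and -0.23 (adjusted p = 0.00628) after quantile normalization. SPRED2 lost its call at 0.17 (adjusted p = 0.0617) and 0.14 (adjusted p = 0.135), and PHLDA1 was called lower at -0.32 and -0.42; beyond that shift the cause was not tested. With a library left out, 3 members were always higher and 5 lower, and the log2 fold change of DUSP1 was -3.27 to -3.10, that of DUSP4 1.67 to 1.73, that of SPRED2 0.36 to 0.52, that of SPRED1 0.0060 to 0.080 and that of PHLDA1 -0.078 to -0.0041. Same-numbered LF3 and CON libraries had deviations from their group means that correlated at 0.048, 0.11 and 0.16, and differently numbered ones at -0.17 to 0.074. Every LF3 library and CON replicates 2 and 3 correlated best with their own number. CON replicate 1 correlated best with LF3 replicate 2. These values do not settle whether the numbers mark pairs, and no label says so, so they were not taken as pairs. With the replicate block, 3 members were higher and 5 lower, and 6536 and 3986 of all tested genes. Among the atypical phosphatases, 1 was called lower in the main setting. The count was 2 with array weights, no filter, the replicate block, and without LF3 replicate 2 or CON replicate 2. It was 3 after quantile normalization and 4 after median-ratio scaling. Depth is unknown, which limits what can be said of genes near the filter.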
